A study of Mus musculus with 6 samples.

Results

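The 8 genes described here place blood cells in the bone marrow and in lymphoid tissue. They are 6 chemokine receptors (Cxcr4, Cxcr5, Cxcr2, Ccr1, Ccr7 and Ccr9), the sphingosine-1-phosphate receptor S1pr1 and the integrin subunit Itga4. They were chosen by symbol, and every probe set listed with 1 of these symbols alone was taken, 17 of 45037 non-control probe sets. Cxcr4, Cxcr5, Cxcr2, Ccr7 and S1pr1 had 1 probe set each, Ccr1 had 2, and Ccr9 and Itga4 had 5 each. The samples were bone marrow cells of mice without Cry1 and Cry2 (DKO 1 to DKO 3) and of wild-type mice (WT 1 to WT 3), all of strain C57BL/6. Every sample had been cultured with 20% fetal bovine serum and 10 ng/ml interleukin-7, a cytokine that sustains early B lymphocytes. RNA of each sample was read on 1 oligonucleotide array. Of these genes, Cxcr2 and Cxcr4 lie on chromosome 1, Itga4 on 2, S1pr1 on 3, Ccr1, Ccr9 and Cxcr5 on 9, and Ccr7 on 11 (GRCm38.p6). The single comparison of the design, DKO against WT, is given here for the homing genes. Age, sex, the number of animals and the time in culture were not stated in the labels used here, so p-values speak only of spread among arrays, which may be technical.

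Chemokine receptors are G protein-coupled receptors that steer cells along gradients of secreted chemokines. In the marrow, CXCR4 binds CXCL12 made by stromal cells and keeps B cell precursors and neutrophils in place, and the integrin of ITGA4 and ITGB1 holds the same cells to VCAM1. CXCR2 promotes the release of neutrophils, and S1PR1 directs lymphocytes towards blood, where its lipid ligand is abundant. CXCR5 and CCR7 guide B cells into follicles and to the border of the T cell zone. CCR1 is mainly a receptor of monocytes and granulocytes, and CCR9 guides lymphocytes towards gut and thymus. Cryptochromes repress CLOCK and BMAL1, which bind DNA at E-boxes.

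RefSeq promoter windows of 250 bases before the gene start (GRCm38.p6) were at hand for Cxcr4, Cxcr2, Ccr1, Ccr9 and Itga4. The canonical E-box CACGTG was found in 0 of these 5 windows, and in 6.02% of all 32851 windows. The variant CACGTT, searched on both strands, was found in 0 of the 5 and in 3.85% of all. The windows of Cxcr4 and Cxcr2 are shown because these receptors have opposite known roles in holding and releasing marrow cells. Cxcr4 lies on the minus strand (chr1:128592300-128592549) and Cxcr2 on the plus strand (chr1:74153744-74153993). Capitals mark TATAAA on the strand of the gene, which begins 30 bases before the start of Cxcr4 and is in 7.59% of all windows. The absence of a match says only that these letters are not in the window.
Cxcr4: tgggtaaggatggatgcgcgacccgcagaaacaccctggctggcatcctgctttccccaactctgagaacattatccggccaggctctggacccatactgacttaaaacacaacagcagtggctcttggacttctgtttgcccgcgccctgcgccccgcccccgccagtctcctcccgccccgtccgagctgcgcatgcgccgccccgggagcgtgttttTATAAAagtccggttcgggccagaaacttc
Cxcr2: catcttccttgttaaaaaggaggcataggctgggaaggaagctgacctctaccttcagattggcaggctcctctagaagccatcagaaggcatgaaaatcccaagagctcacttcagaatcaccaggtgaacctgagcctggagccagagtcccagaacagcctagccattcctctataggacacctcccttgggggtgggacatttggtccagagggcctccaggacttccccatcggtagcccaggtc

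Of the deleted genes, Cry1 gave signals of 359, 399 and 545 on the DKO arrays, against 1533, 1502 and 955 on the WT arrays, with no overlap (log2 difference -1.26, limma adjusted p = 0.822). Cry2 gave 162, 178 and 133 in DKO, against 145, 102 and 105 in WT, so it does not check the label of the knockout, and whether it lies in the deleted part is not known here. Array WT 2 stood apart, and its values are given apart from those of the other arrays. Its 3' to 5' signal ratio was 824 for Actb and 132 for Gapdh, against at most 2.05 and 1.72 on the other 5 arrays, a sign of degraded or incompletely copied RNA. Its median signal was 115, against 44.0 to 55.3, so each array was centred on its median after transformation to log2(intensity + 16), the log2 scale used below. After centring, WT 2 was the lowest of the 6 arrays for all 6 tested homing genes by their brightest probe set, and for 53.4% of all 27022 tested probe sets. It was not the lowest for any other tested probe set of Ccr1 or Itga4. On the deposited scale it was the lowest for 3 of the 6 genes and for 31.0% of all. The pre-B cell genes Vpreb1 and Igll1, which encode the surrogate light chain, were bright on every array, Vpreb1 at 13707 to 21211 in DKO and 14851 to 51355 in WT. Of the 13 tested genes on the pro-B and pre-B cell list, 8 had higher and 5 lower mean log2 level in DKO, with 0 called and 2 at an unadjusted p under 0.05, and 0 and 4 without WT 2, where the whole table had 3.12% and 4.35% at that p. Of 10 stromal and endothelial markers, Pdgfrb, Col1a1 and Col3a1 were too dim to be tested. The other 7 were tested, 4 with higher and 3 with lower mean log2 level in DKO. Without WT 2, 5 were higher and 2 lower, with 0 called and 0 at an unadjusted p under 0.05 in either fit. Plasma cell markers were higher in 6 and lower in 2 of 8 tested (median 0.28), and in 5 and 3 without WT 2 (median 0.09). In either fit 3 had an unadjusted p under 0.05 and 1 was called. This was Igha, the constant region of immunoglobulin A, at 19431, 14896 and 6180 in DKO against 30.7, 162 and 44.9 in WT (log2 difference 7.56, limma adjusted p = 0.0435). The brightest, Xbp1 and Mzb1, differed by 0.00 and 0.49 (limma adjusted p = 0.997 and 0.822). The other tested probe sets of Xbp1 differed by 1.64, -0.17 and 1.88. Mast cell and basophil markers were higher in 6 of 6 tested and dendritic cell markers in 6 of 7, where 17536 of all 27022 tested probe sets were. Without WT 2 these counts were 6 of 6 and 5 of 7. In both lists 0 were called in either fit, with 1 and 2 at an unadjusted p under 0.05, and 2 and 2 without WT 2. The summed signal of 9 mast cell and basophil markers was 2453, 2171 and 358 in DKO 1 to 3, against 1424, 1107 and 372 in WT 1 to 3. By this sum DKO 3 was the dimmest array for these markers, close to WT 3. By the median deviation of the tested markers from their 6-array mean after centring, WT 3 was lowest (-0.93, against -0.89 on DKO 3). In such a mixed culture, fewer cells of a type and less RNA per cell cannot be told apart.

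No homing gene passed the threshold of an adjusted p of 0.05 with all 6 arrays. Of the 17 probe sets, 10 from 6 genes passed the filter on dim probe sets (mean above percentile 40) and were tested, and the others, those of Cxcr2 and Ccr9 and 1 of Itga4, are given as signals. The call rate was 0 of 10, where limma called 0.0074% of all tested probe sets. At an unadjusted p under 0.05 it was also 0 of 10, where the whole table had 3.12%. Without WT 2 the count stayed at 0 of 10, where 0.0259% of all were called, and at an unadjusted p under 0.05 it was 2 of 10, Cxcr4 and Cxcr5, where the whole table had 4.35%. With 3 arrays a genotype, intervals were wide, and a missed threshold does not show that a gene was alike in both genotypes.

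**Figure D1:**
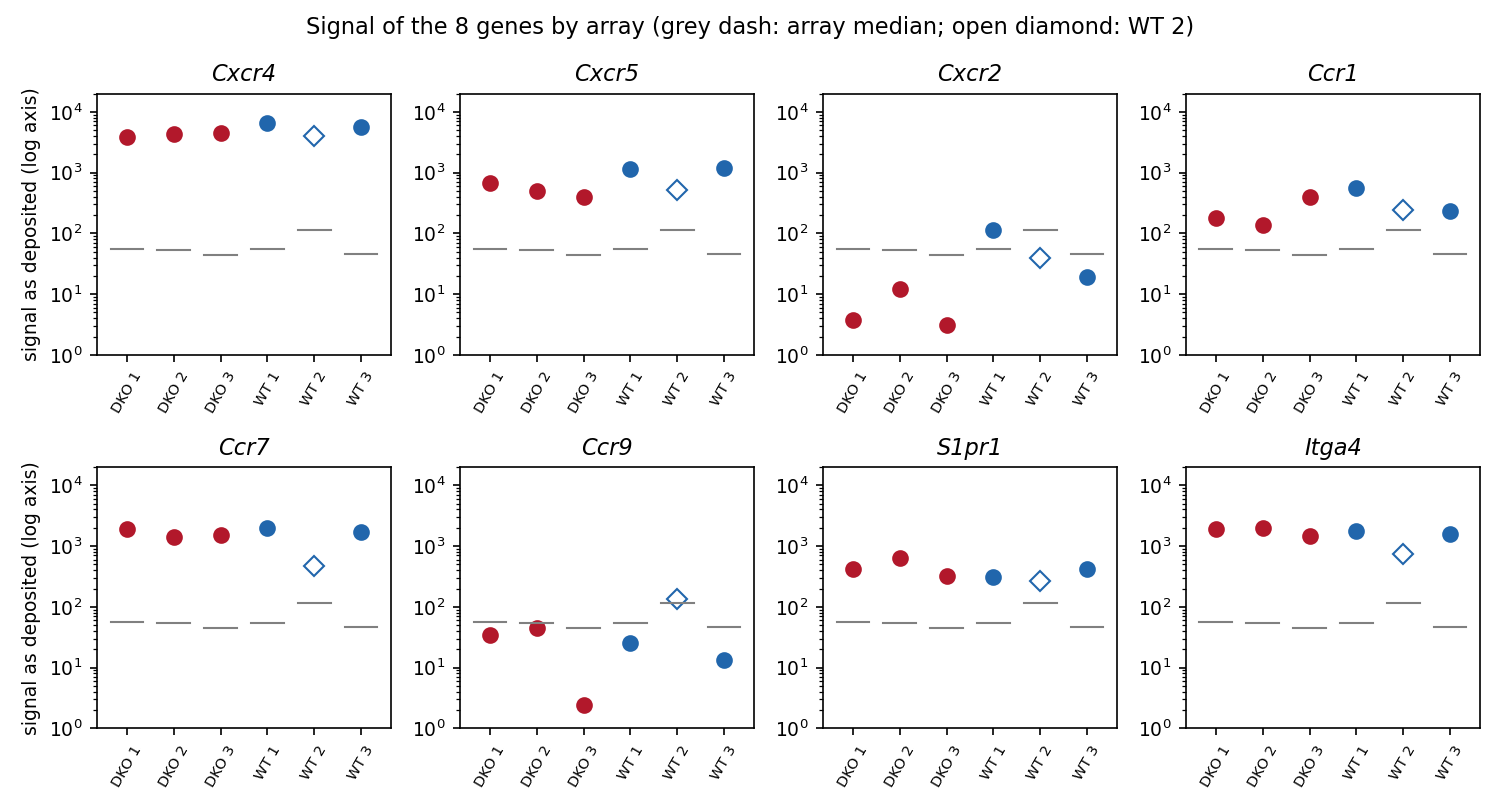
Deposited signal (log axis) of the representative probe set of each of the 8 genes on each array. DKO arrays are red, WT arrays blue, WT 2 is an open diamond, and grey dashes mark the median signal of each array. Cxcr5 lies at 401 to 686 in DKO and at 1152 and 1186 in WT 1 and WT 3, while Cxcr2 lies above the array median on WT 1 alone.

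Cxcr5, the receptor for the follicle chemokine CXCL13, was lower on all DKO arrays than on WT 1 and WT 3. It read 686, 494 and 401 in DKO 1 to 3, against 1152 and 1186 in WT 1 and WT 3, and 517 in WT 2. The DKO range thus ended well below WT 1 and WT 3, and it spanned the deposited value of WT 2, which was the lowest of all after centring. With all 6 arrays the log2 level was 9.21 ± 0.27 in DKO and 9.67 ± 1.24 in WT (SD, n = 3 each), and the groups differed by -0.46 (standard error, SE, 0.65, limma adjusted p = 0.839). Without WT 2 the difference was -1.18, or 0.442 times the WT level (SE 0.26, 95% interval of the log2 difference -1.79 to -0.57, unadjusted p = 0.00271, limma adjusted p = 0.815). Leaving out DKO 3 as well gave -1.08 and a limma adjusted p of 0.0494, in a fit that called 4.07% of all probe sets. That fit rested on 2 arrays a genotype, and Cxcr5 was the single homing probe set of 10 called there. The difference was smaller than with DKO 3, so the lower adjusted p does not come from a larger difference. DKO 3 had no sign of poor RNA (3' to 5' ratio of 1.47 for Actb), and it was left out with earlier results of these data known. Over all tested probe sets its highest correlation was with a wild-type array, WT 3 (0.984). The highest of DKO 1 and of DKO 2 was 0.977.

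The median of the mature B cell markers, like Cxcr5, was lower on DKO 1 and DKO 2 than on WT 1 and WT 3. On DKO 3 and WT 2 this median was above the 6-array mean, and Cxcr5 was below its own. Of 8 tested markers, 2 (Tnfrsf13c and Ltb) were higher and 6 lower in DKO. Without WT 2 the split was also 2 and 6, with 0 called and 0 at an unadjusted p under 0.05 in either fit. For 8 tested markers, the median deviation from the 6-array mean was -1.28, -1.10 and 0.71 for DKO 1 to 3, against 0.16, 0.25 and 0.90 for WT 1 to 3. The summed signal of the 10 markers with a probe set was 5992, 7692 and 32601 in DKO, against 17052, 35876 and 31072 in WT, with no marker at 0. DKO 3 was thus the brightest DKO array for these markers and the dimmest for Cxcr5. Cd22, an inhibitory receptor of B cells, read 923, 1394 and 5926 in DKO against 6079 and 6089 in WT 1 and WT 3, and 11739 in WT 2. This probe set of Cd22 differed by -1.62 and its other tested probe set by 0.77. The part of cell composition in the Cxcr5 values was not tested.

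Cxcr4, the CXCL12 receptor that retains cells in the marrow, was bright on every array. It read 3895, 4321 and 4459 in DKO 1 to 3, against 6588 and 5591 in WT 1 and WT 3, and 3995 in WT 2. All DKO arrays lay below WT 1 and WT 3, and WT 2 lay among the DKO arrays as deposited and below them after centring. With all 6 arrays the log2 level was 12.20 ± 0.22 in DKO and 12.21 ± 0.92 in WT (SD, n = 3 each), and the groups differed by -0.01 (SE 0.51, limma adjusted p = 0.995). Without WT 2 it was -0.54, or 0.687 times the WT level (SE 0.19, 95% interval -1.00 to -0.09, unadjusted p = 0.0264, limma adjusted p = 0.948). Without WT 2 and DKO 3 it was -0.66 with an adjusted p of 0.0591.

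Ccr7, the receptor for CCL19 and CCL21, differed in direction with and without WT 2. It read 1944, 1412 and 1499 in DKO 1 to 3, against 2002 and 1708 in WT 1 and WT 3, and 461 in WT 2. WT 2 was the outlying value, and the other 5 arrays lay close together. With all 6 arrays the difference was 0.76 (SE 0.83, limma adjusted p = 0.822). Without WT 2 it was -0.22 (SE 0.22, 95% interval -0.74 to 0.30, limma adjusted p = 0.948).

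Cxcr4, Cxcr5 and Ccr7 were the 3 tested genes whose DKO arrays all lay below WT 1 and WT 3 on the centred log2 scale, and 8.14% of all tested probe sets showed this. For Ccr7, DKO 1 and WT 3 were nearly equal on that scale, and the deposited signals overlapped. No tested homing gene had all DKO arrays above WT 1 and WT 3, which 10.3% of all did. With WT 2 included, 0 of the 6 tested homing genes had groups that did not overlap, against 3.29% of all probe sets on the lower side and 6.97% on the higher side.

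Cxcr4 and Cxcr5 shared Rag2, a recombinase gene, among the genes most like them. Among 166 tested genes of the pathway and marker lists, the highest Pearson correlations with Cxcr4 over the 6 arrays were those of Prdm1 (0.977) and Rag2 (0.969), and over the 5 arrays without WT 2 those of Ppbp (0.941) and Rag2 (0.936). For Cxcr5 they were Rag2 (0.906) and Rag1 (0.847) over 6 arrays, and Irf4 (0.839) and Rag2 (0.808) over 5. For Ccr7 they were Irf4 (0.988) and Gnb2 (0.987) over 6 arrays, and Cxcl1 (0.930) and Itga2b (0.923) over 5. These correlations over few arrays, among them WT 2, are a description only. Rag2, which cuts immunoglobulin genes together with RAG1, read 226, 233 and 298 in DKO 1 to 3, against 485 and 603 in WT 1 and WT 3, and 185 in WT 2. Its difference was -0.26 (limma adjusted p = 0.91), and -1.08 with a standard error of 0.31 without WT 2 (limma adjusted p = 0.948). Rag1 differed by -0.06 with all arrays and by -1.05 without WT 2.

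**Figure D2:**
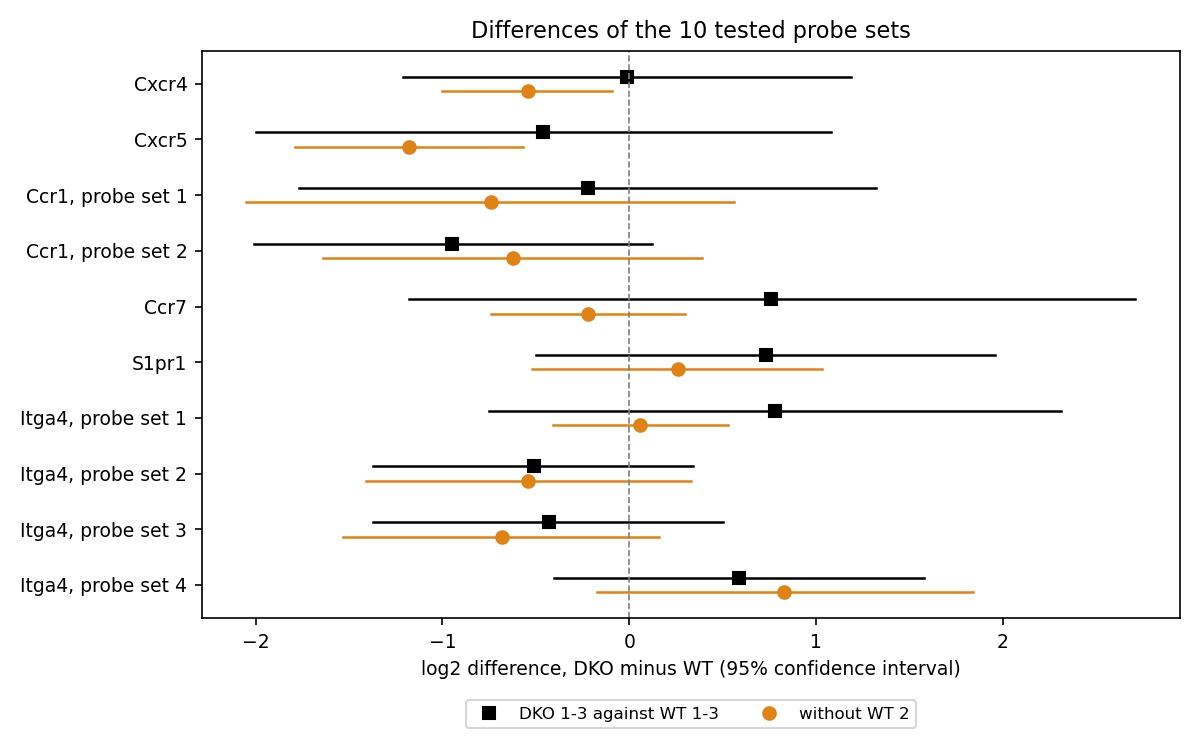
Log2 differences, DKO minus WT, of the 10 tested probe sets with 95% intervals, from all 6 arrays (black squares) and without WT 2 (orange circles). Probe sets of a gene are numbered from the highest mean signal. All intervals from 6 arrays span 0, and without WT 2 those of Cxcr5 (-1.79 to -0.57) and Cxcr4 (-1.00 to -0.09) do not.

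S1pr1, the egress receptor, had a higher mean log2 level in DKO, with overlapping groups. It read 421, 626 and 325 in DKO 1 to 3, against 310 and 424 in WT 1 and WT 3, and 265 in WT 2. The highest array was DKO 2, and WT 3 lay above DKO 1 and DKO 3. The difference was 0.73 (SE 0.52, limma adjusted p = 0.822), and 0.26 with a standard error of 0.33 without WT 2 (95% interval -0.52 to 1.03, limma adjusted p = 0.951). The genes most like it were Pecam1 (0.990), an adhesion receptor of endothelial and blood cells, and Blnk (0.959), an adaptor of B cell signalling, over 6 arrays, and Pecam1 (0.960) and Kitl (0.930) over 5. Pecam1 read 373, 747 and 329 in DKO 1 to 3, against 320 and 503 in WT 1 and WT 3, and 135 in WT 2. Klf2, a transcription factor that activates S1pr1 in lymphocytes, read 1310, 1175 and 4636 in DKO, against 2884 and 4347 in WT 1 and WT 3, and 3340 in WT 2. Cd69, whose protein removes S1PR1 from the cell surface, read 2310, 2737 and 703 in DKO, against 1013 and 1109 in WT 1 and WT 3, and 538 in WT 2. DKO 3 stood opposite to DKO 1 and DKO 2 for Klf2 and for Cd69, and these genes differed by -0.53 and 1.26 (limma adjusted p = 0.831 and 0.822).

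Itga4, the alpha 4 integrin subunit, gave probe sets of both signs. Its representative, the probe set with the highest mean signal, read 1945, 1989 and 1449 in DKO 1 to 3, against 1783 and 1587 in WT 1 and WT 3, and 741 in WT 2. Apart from WT 2, the groups overlapped and lay close together. The difference was 0.78 (SE 0.65, limma adjusted p = 0.822), and 0.06 with a standard error of 0.20 without WT 2 (95% interval -0.41 to 0.53, limma adjusted p = 0.975). Another 3 tested probe sets differed by -0.51, -0.43 and 0.59, and by -0.54, -0.68 and 0.83 without WT 2, with limma adjusted p of 0.822 and 0.948 throughout. The probe set at 0.59 read 91.4, 63.5 and 20.8 in DKO against 19.6, 108 and 23.9 in WT, so DKO 3 matched WT 1 and WT 3. The fifth, not tested, read 3.27 to 46.0 in DKO and 5.82 to 48.4 in WT. The genes most like the representative were Sgpp1 and Gnb2 (0.994 each) over 6 arrays and Cd69 (0.985) and Vpreb1 (0.982) over 5. The beta partners of ITGA4 are ITGB1 and ITGB7. Itgb1 read 362, 649 and 643 in DKO, against 610 and 514 in WT 1 and WT 3, and 42.5 in WT 2, and its difference of 1.34 became -0.09 without WT 2. Itgb7 differed by 0.59, and by 0.40 without WT 2 (limma adjusted p = 0.822 and 0.948).

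Ccr1, a receptor for CCL3 and CCL5 on myeloid cells, varied within both genotypes. It read 181, 136 and 397 in DKO 1 to 3, against 562 and 237 in WT 1 and WT 3, and 240 in WT 2. DKO 3 lay above WT 3, so the groups overlapped. The difference was -0.22 (SE 0.66, limma adjusted p = 0.917), and -0.74 with a standard error of 0.55 without WT 2 (95% interval -2.05 to 0.56, limma adjusted p = 0.948). The second probe set, dimmer, read 29.3, 16.1 and 20.7 in DKO, against 78.9 and 18.5 in WT 1 and WT 3, and 207 in WT 2, with a difference of -0.95 (limma adjusted p = 0.822).

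By its brighter probe set, Ccr1 was high and low on the same arrays as several macrophage genes. The genes most like it were Cd68 (r = 0.993), a lysosomal protein of macrophages, and Fcgr1 (0.972), an Fc receptor of monocytes, over 6 arrays, and Cd68 (0.991) and Adgre1 (0.982) over 5. Cd68 read 382, 281 and 1194 in DKO 1 to 3, against 1769 and 749 in WT 1 and WT 3, and 463 in WT 2. Over the 15 monocyte and macrophage markers with a probe set, none of which was at 0, the summed signal was 12663 to 26402 in DKO and 17365 to 64566 in WT. Of these 15, 4 had higher and 11 lower mean log2 level in DKO, and 1 higher and 14 lower without WT 2, with 0 called in either fit and 2 and 0 at an unadjusted p under 0.05. Their median deviation was -1.00, -0.67 and 0.70 for DKO 1 to 3, against 1.15, -0.52 and 0.20 for WT 1 to 3. The median deviation of the granulocyte markers, -2.5, -1.83 and 1.52 for DKO 1 to 3, against 2.31, 0.42 and 0.52, was likewise high on DKO 3 and WT 1. Csf1r, the receptor for macrophage colony-stimulating factor, read 1012, 910 and 2703 in DKO, against 7067 and 1819 in WT 1 and WT 3, and 26294 in WT 2. It was thus highest on WT 2, where Ccr1 was lowest after centring. The part of cell composition in the Ccr1 values was not tested.

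**Figure D3:**
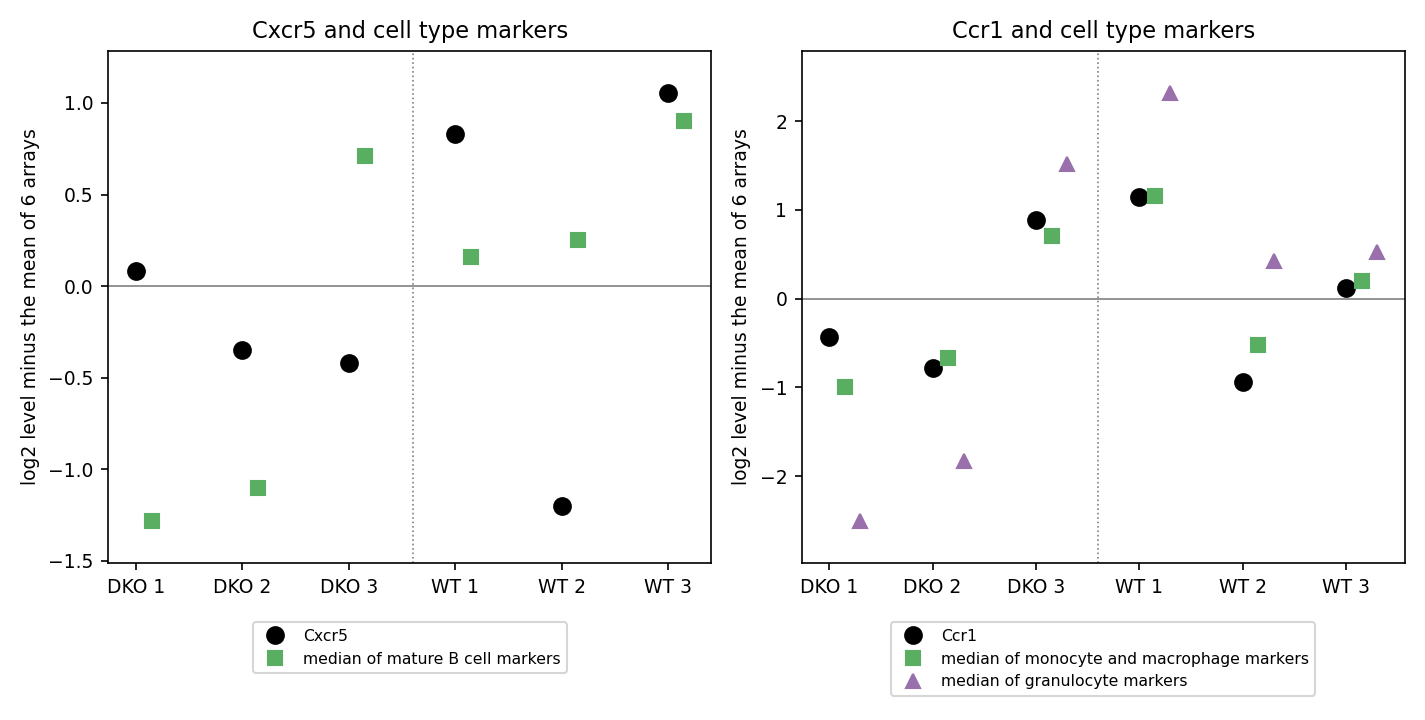
Log2 level of Cxcr5 (left) and Ccr1 (right) on each array, as the difference from the mean over the 6 arrays, beside the median of cell type marker lists on the same scale. Ccr1 and the median of the monocyte and macrophage markers (-1.00, -0.67 and 0.70 on DKO 1 to 3) are both high on DKO 3 and WT 1. The median of the granulocyte markers is high there too (1.52 and 2.31). Cxcr5 is low on DKO 3, where the median of the mature B cell markers is high (0.71).

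Cxcr2, the neutrophil receptor for CXCL1 and CXCL2, was dim and was not tested. It read 3.70, 12.3 and 3.07 in DKO 1 to 3, against 114 and 19.1 in WT 1 and WT 3, and 39.3 in WT 2. All DKO arrays lay below all WT arrays, a pattern seen in 3.29% of all tested probe sets, among which Cxcr2 is not counted. On the centred log2 scale DKO 2 and WT 2 were nearly equal, at 4.91 and 4.97. WT 1 was the single array where the signal exceeded the array median. The log2 difference was -1.21, and -1.64 without WT 2, sizes that depend on the pseudocount. The genes most like it were Itgam (0.917), the integrin subunit of CD11b, and Rgs10 (0.854) over 6 arrays, and Irf4 (0.951) and Rgs10 (0.947) over 5. Granulocyte markers, too, were lower in DKO by mean, 15 of 15 tested, where 9486 of all 27022 tested probe sets were. Their median difference was -2.70, with 0 called by limma and 7 at an unadjusted p under 0.05, where the whole table had 3.12%. Without WT 2 these markers were again lower in 15 of 15, where 14227 of all were. Their median was then -2.60, with 0 called and 7 at an unadjusted p under 0.05, where the whole table had 4.35%. Their summed signal was 724, 686 and 28150 in DKO, against 77019, 180926 and 19533 in WT, with none of the 15 at 0. S100a8, a calcium-binding protein of neutrophils, read 190, 186 and 10377 in DKO, against 24760 and 8306 in WT 1 and WT 3, and 94059 in WT 2. On DKO 3 the deposited Cxcr2 signal was the lowest of the 6 arrays while S100a8 was above its value on WT 3. Whether the dim Cxcr2 signal comes from granulocytes was not tested.

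Ccr9, the receptor for CCL25, was above the array median on at most 1 array in each of its 5 probe sets, and none was tested. The representative read 33.8, 44.8 and 2.44 in DKO 1 to 3, against 25.2 and 13.4 in WT 1 and WT 3, and 137 in WT 2. The groups overlapped, and WT 2 was the single array above its array median. The 5 probe sets differed by -0.57 to 0.56 with all arrays and by -0.04 to 0.30 without WT 2. The genes most like the representative were Vpreb1 (0.922) and Igll1 (0.908) over 6 arrays, and Cpa3 (0.965) and Vpreb1 (0.927) over 5. Ccl25 read 142 to 214 in DKO and 122 to 396 in WT, with a difference of 0.24 (limma adjusted p = 0.827).

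The tested homing genes moved together over arrays mainly where WT 2 was included. Over the 6 arrays, the 15 pairs of the 6 tested genes had Pearson correlations of 0.139 to 0.976, all positive. Without WT 2, 7 pairs were positive and 8 negative, from -0.897 to 0.751. Ccr7 and Itga4 correlated at 0.976 over 6 arrays and at -0.574 over 5. Over the 5 arrays, Cxcr4, Cxcr5, Ccr1 and Ccr7 were positively correlated with each other (Cxcr4 and Cxcr5 at 0.715), S1pr1 and Itga4 with each other (0.696), and each pair across these sets was negative, such as Ccr1 and Itga4 (-0.897). These values describe few arrays, and no test was made of them.

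Other chemokine receptors were mostly dim. Of 15 with a probe set, 8 were tested, 4 with higher and 4 with lower mean log2 level in DKO, and 0 were called or had an unadjusted p under 0.05. Their median difference was 0.00, against 0.21 for all tested probe sets, and without WT 2 it was 0.28 with 7 of 8 higher, against -0.02 for all. With all arrays 17536 of 27022 tested probe sets were higher in DKO, and without WT 2 12795 were. The smallest p were those of Cxcr6, a receptor of T and NK cells, and Ccrl2, a chemerin-binding receptor (0.42 and 0.50, limma adjusted p = 0.822 each). T, NK and innate lymphoid cell markers were higher by mean in 6 of 8 tested, with a median of 1.04, 0 called and 4 at an unadjusted p under 0.05. Without WT 2 they were higher in 7 of 8, with a median of 1.34, 0 called and 2 at an unadjusted p under 0.05. Their summed signal was 1075, 1856 and 329 in DKO, against 356, 1145 and 333 in WT, with none at 0. Cd3d, a chain of the T cell receptor complex, read 155, 295 and 8.43 in DKO, against 10.6, 14.0 and 7.90 in WT. DKO 2 was the highest array for Cxcr6 and for Cd3d, and the part of these cells in the Cxcr6 values was not tested. Ccrl2 read 263, 331 and 91.6 in DKO, against 165 and 71.8 in WT 1 and WT 3, and 424 in WT 2. Over the 6 tested homing genes, 3 were higher and 3 lower, with a median of 0.36, and without WT 2 2 were higher and 4 lower, with a median of -0.38.

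Ligands differed in both directions. Of 13 tested, 8 were higher and 5 lower in DKO, with 0 called, 1 at an unadjusted p under 0.05 and a median of 0.21, and without WT 2 7 were higher, with 0 called, 3 at an unadjusted p under 0.05 and a median of 0.04. Ccl5, a ligand of CCR1, read 106, 167 and 130 in DKO 1 to 3, against 74.2 and 50.7 in WT 1 and WT 3, and 194 in WT 2, a difference of 0.77 (limma adjusted p = 0.822). Ppbp, a platelet chemokine that binds CXCR2, read 16.6, 30.9 and 278 in DKO, against 510 and 264 in WT 1 and WT 3, and 384 in WT 2, a difference of -2.03 (limma adjusted p = 0.822). DKO 3 was within the WT range for Ppbp. Pf4, another platelet chemokine, likewise read 147, 198 and 3950 in DKO against 1619, 4195 and 2269 in WT. Cxcl2, a CXCR2 ligand of activated myeloid cells, differed by -1.40, Cxcl13 by 0.54 and Vcam1 by 0.64, all with an adjusted p of 0.822. Without WT 2 Cxcl13 differed by 1.17, at 77.7, 100 and 33.6 in DKO against 35.1 and 8.89 in WT 1 and WT 3. Cxcl12 was too dim to be tested, at 17.5 to 30.2 in DKO and 10.3 to 105 in WT.

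Genes that act with these receptors were mostly higher in DKO by mean with all arrays, as was the whole table (17536 of 27022), and nearly evenly split without WT 2, as was the whole table (12795 of 27022). Of 27 tested genes of chemokine receptor signalling and desensitisation, 20 were higher, with a median of 0.56, and without WT 2 14 were higher, with a median of 0.04, and 0 were called in either fit, with 3 at an unadjusted p under 0.05 in each. Gnb2, a G protein beta subunit, read 10229, 9261 and 9311 in DKO 1 to 3, against 8110 and 9190 in WT 1 and WT 3, and 68.7 in WT 2. Its difference of 2.69 thus rested on WT 2 and was 0.13 without it. Pik3cg, the catalytic subunit of the PI3-kinase that G protein beta-gamma activates, differed more than Gnb2 without WT 2. It read 1434, 1265 and 522 in DKO 1 to 3, against 340 and 389 in WT 1 and WT 3, and 249 in WT 2, with every DKO array above every WT array. This pattern was seen in 6.97% of all tested probe sets, as given above. Pik3cg and Plcb2 were named for the smallest p of their list, a choice that favours groups without overlap. Its difference was 1.88 (SE 0.58, limma adjusted p = 0.822), and 1.38 with a standard error of 0.39 without WT 2 (limma adjusted p = 0.948). Its other tested probe set differed by 0.76. Plcb2, a phospholipase activated by the same subunits, read 108, 109 and 84.8 in DKO, against 34.1 and 50.3 in WT 1 and WT 3, and 31.5 in WT 2, again without overlap, with a difference of 1.41 (limma adjusted p = 0.822). The receptor kinases Grk3 and Grk6, which desensitise chemokine receptors, differed by -0.60 and -0.54, and by -0.23 and -0.22 without WT 2, and the other tested probe sets of Grk6 by 0.70 and 1.26.

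**Figure D4:**
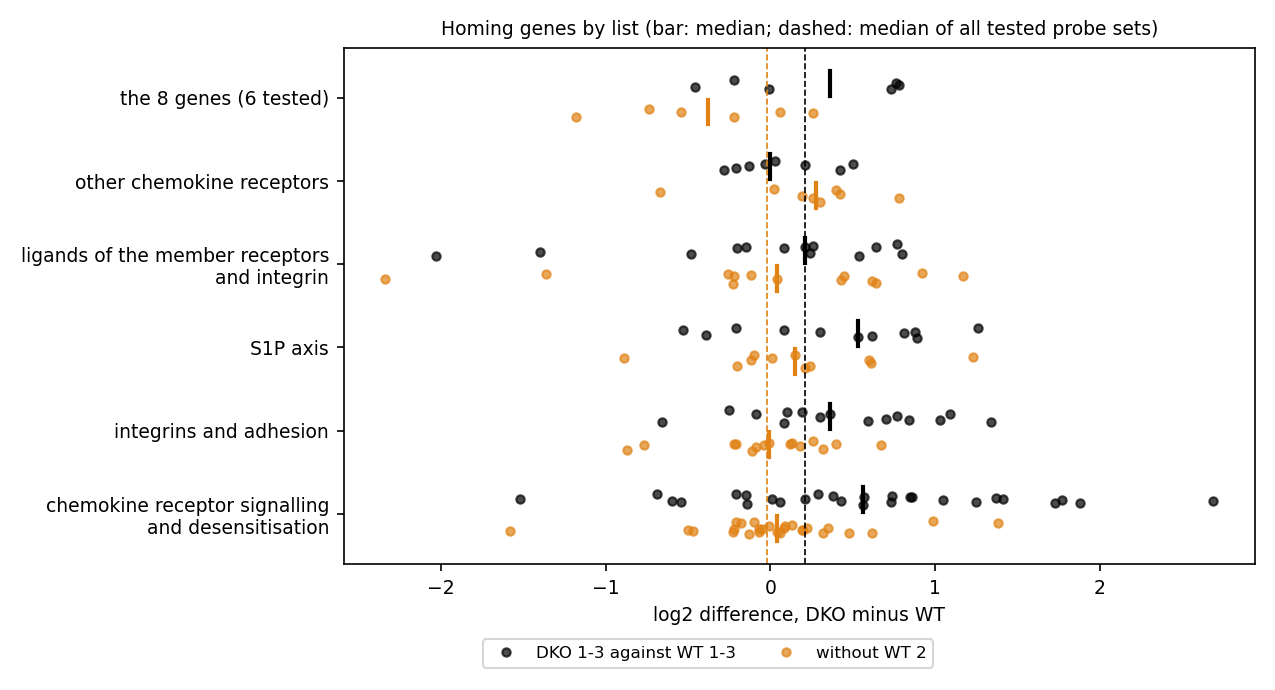
Log2 differences, DKO minus WT, of the 6 tested homing genes and of the tested genes of 5 related lists, from all 6 arrays (black) and without WT 2 (orange), with list medians as bars and the medians of all tested probe sets (0.21 and -0.02) as dashed lines. For chemokine receptor signalling the median is 0.56 with WT 2 and 0.04 without it.

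The integrin and sphingosine-1-phosphate lists, too, were mostly higher in DKO with all arrays, where 17536 of all 27022 tested probe sets were. Of 15 tested integrin and adhesion genes, 12 were higher in DKO with a median of 0.36, and without WT 2 7 were higher with a median of -0.01. Icam1, a ligand of beta 2 integrins, read 1335, 1515 and 873 in DKO 1 to 3, against 746 and 741 in WT 1 and WT 3, and 614 in WT 2, with no overlap, a difference of 1.09 (limma adjusted p = 0.822), and 0.67 without WT 2. Itgam, also a myeloid marker, read 27.0, 49.7 and 40.6 in DKO, against 114 and 48.5 in WT 1 and WT 3, and 127 in WT 2, a difference of -0.66 (limma adjusted p = 0.822). Of 11 tested genes of the sphingosine-1-phosphate axis, 8 were higher with a median of 0.53, and without WT 2 7 were higher with a median of 0.15, with 0 called in both lists and both fits, and, at an unadjusted p under 0.05, 0 in each list with all arrays and 1 in each without WT 2. Sphk2, a kinase that makes sphingosine-1-phosphate, read 727, 524 and 482 in DKO, against 376 and 354 in WT 1 and WT 3, and 407 in WT 2, without overlap, a difference of 0.88 (limma adjusted p = 0.822), and its other tested probe set differed by 0.85. Icam1 and Sphk2 were named for a small p in their lists, which favours groups without overlap. Every DKO array lay above every WT array in 6.97% of all tested probe sets.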

How the data were processed

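The authors deposited 1 table of linear MAS5 signal intensity per probe set and array (method per the submitters' processing notes). After trimming 2% at each end, every array had a mean of 500. Of 45101 probe sets, 64 controls served only for quality. Of the rest, 34945 had 1 gene symbol and could be named, 932 had several and 9160 none. Gene IDs of 34741 matched the RefSeq gene table of GRCm38.p6.

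Values were transformed as log2(intensity + 16), which understates differences of dim genes, and centred on each array's median, since array medians spread over 1.13. The 27022 probe sets above percentile 40 of mean level were tested with limma 3.58.1 in R 4.3.3 (genotype as the single term, trended variances, two-sided, Benjamini-Hochberg over all tested, threshold 0.05). The fit was also run on simulated data with independent noise of equal spread on all arrays. That run held no outlying array, so it does not cover data with an array like WT 2. A gene's representative was its probe set with the highest mean. Python 3.11.15, numpy 2.4.6, pandas 2.3.3 and matplotlib 3.10.9 made tables and figures.

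Named were all probe sets of the 8 genes, their direct partners, the 2 genes of smallest p in each related list, bright markers and, for each of the 8, the 2 list genes of highest correlation. Pdgfrb, Col1a1, Col3a1, Cd3d and Igha were chosen after their values were seen. Listed genes without a 1-symbol probe set, such as Ccl19 and Grk2, are not analysed here. The members, lists, settings and the separate treatment of WT 2 were chosen with earlier results of these data known. Alternatives were other normalizations, pseudocounts, filters, variance models, array weights (estimated gene by gene, since the default estimation did not converge), arrays left out, the replicate number as a block and other probe sets of a gene. Replicate numbers were not taken to pair arrays. Deviations of same-numbered DKO and WT arrays correlated at -0.151, -0.00189 and 0.334, and those of other DKO and WT arrays at -0.393 to 0.317. The WT deviations were taken from a mean that includes WT 2, so these values cannot decide whether arrays were paired. The number of arrays limits precision.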

Additional observations from a re-analysis of the deposited data

How the results depend on the processing

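The count of all probe sets called by limma, 2 with 6 arrays, was 922 with array weights, 1099 without WT 2 and DKO 3, 5 without WT 2 under quantile normalization, 1 with the filter at percentile 60 or robust variances, and 0 with centring over tested probe sets, no centring, a pseudocount of 1, quantile normalization or the replicate block. It ran between 0 and 7 when 1 array was left out, with 7 without WT 2. Homing probe sets called were 0 in the main setting, 1 (Cxcr5) with array weights and 1 without WT 2 and DKO 3, and 0 in the other settings run, the replicate block included. Array weights gave WT 2 0.0623, against 0.535 to 4.39 for the other arrays, and Cxcr5 an adjusted p of 0.0464. The median over the 6 tested genes, 0.36, was -0.44 with array weights and -0.46 without WT 2 and DKO 3, and the number higher in DKO, 3, was between 2 and 5 with 1 array left out. Ccr7 turned to -0.30 with array weights, -0.25 without WT 2 and DKO 3 and -0.20 without WT 2 under quantile normalization, and ran from -0.22 to 1.27 with 1 array left out. Cxcr4 turned to 0.05 at a pseudocount of 1 and ran from -0.54 to 0.27, and Ccr1 from -0.74 to 0.29, with 1 array left out. Over 21 alternatives each, Cxcr5 (-1.18 to -0.05), S1pr1 (0.26 to 1.12) and Itga4 (0.06 to 1.14) kept their direction. Changes of only the filter, the variance model or the replicate block cannot move a difference. For Cxcr5 and S1pr1, with 1 probe set each, neither can the choice of probe set. Such settings returned the main values (-0.46 for Cxcr5, 0.73 for S1pr1) and say nothing of direction. For Itga4 the alternatives used its brightest or its dimmest tested probe set, or the mean of those tested. Its tested probe sets at -0.51 and -0.43 were not tried alone, so this does not settle the direction of the gene. The cause of these shifts was not tested. The median difference of all tested probe sets was 0.21, and -0.10 without centring, -0.02 under quantile normalization and -0.02 without WT 2, so the sizes of all differences above move with the scaling.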
